A study of Mus musculus with 90 samples.

Results

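Regulatory T cells (Tregs) of the population labelled IL10 were compared between tumours and lymph nodes that do not drain the tumour. The comparison rests on 6 of the 90 RNA-seq libraries of the series, chosen by their labels: 3 tumour and 3 non-draining lymph node libraries, with 1 of each in each of 3 labelled batches. All 6 carry the label WT for mouse genotype and Treg for cell type. The cells were sorted in 2 rounds for purity, and full-length cDNA was made with the SMART-Seq v4 kit before Nextera XT library preparation. The tumour, the age and number of the mice and the reporter or stain behind the sort are not stated in the labels. Nothing in the labels says that the 3 libraries of a group came from separate mice, and the p-values therefore reflect the spread between libraries alone, which may be technical. The other 2 Treg populations sorted from the same kinds of site serve as a reference: DN Tregs, the population labelled DN, and Ebi3 Tregs, labelled for Ebi3, a subunit of the cytokine IL-35. Each has 3 tumour and 3 lymph node libraries, also WT, and shares no library with the IL10 comparison.

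Tregs restrain other T cells, and Foxp3 is the transcription factor that defines them. IL-10 is a secreted cytokine that dampens antigen-presenting cells and T cells, and the Tregs that make it are mostly effector cells found at mucosal surfaces and in tumours. A tumour differs from a resting node in oxygen, glucose, lipid supply, antigen and inflammatory signals, all of which act on the transcriptome of the cells inside.

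Levels are given as CPM, read counts scaled to a common library size, here the library total multiplied by edgeR's TMM factor, in the order of batches 1, 2 and 3. Changes are log2 fold changes of tumour over lymph node with their standard error (SE) from edgeR's quasi-likelihood fit with batch as a block, and a gene rose or fell where its Benjamini-Hochberg adjusted p lay under 0.05. The libraries held 12528593 to 20010594 counts. TMM factors were 0.884, 0.945 and 0.875 in the tumour libraries and 1.02, 1.03 and 0.992 in the lymph node libraries.

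Levels of genes tied to the sort are given for the 6 libraries alone, and enrichment of Il10 over the other Treg populations was not tested. Il10 stood at 129.8, 164 and 141 CPM in tumour and 93.1, 117 and 95.2 CPM in lymph node, from 1947 to 2321 reads per tumour library and 1496 to 1760 per lymph node library. Every tumour library lay above every lymph node library, but the difference of 0.51 ± 0.46 did not pass the test (adjusted p = 0.59). The change of Il10 between sites was lower in IL10 than in DN Tregs by edgeR's test of that difference. IL10 Tregs are labelled for this gene, so the sort may fix that outcome, and no conclusion is drawn from it. The call was lost without batch 1, batch 3 or the lymph node library of batch 2 (adjusted p up to 0.215). Foxp3 stood at 76.6, 159 and 70.4 CPM in tumour and 55.8, 112 and 50.2 CPM in lymph node, with batch 2 highest at both sites, and its difference of 0.49 ± 0.25 did not pass either (adjusted p = 0.279). Ebi3 was low in both groups, at 0.0566, 7.09 and 1.39 CPM in tumour and 2.43, 0.911 and 1.19 CPM in lymph node, with 84 of its 108 tumour reads in batch 2. Il12a, the other subunit of IL-35, had 5 reads in 1 tumour library and 0 in the other 5 libraries. Markers of T cells summed to 6987 to 9677 CPM in tumour and 7321 to 8354 CPM in lymph node. The 6 neutrophil markers were at 0 in all 6 libraries, and so were Ms4a1 and Pax5 of B cells, Csf1r and Mrc1 of macrophages and Itgax and Clec9a of dendritic cells. Summed B cell markers ran from 26.3 to 38.9 CPM in tumour and from 53.2 to 103.6 CPM in lymph node, macrophage markers from 14.6 to 23.3 and from 20.4 to 30.7 CPM, and dendritic cell markers from 23.8 to 38.6 and from 2.97 to 11.8 CPM. Nearly all of the dendritic sums came from Zbtb46, at means of 22.5 and 2.10 CPM, and Xcr1, at 8.22 and 5.48 CPM. Of 3 dendritic markers tested by edgeR 0 passed. Pigment cell tumour markers summed to 9.20 to 40.3 CPM in tumour and 10.25 to 16.8 CPM in lymph node. Nearly all of the lymph node sums came from Pmel, at means of 11.58 CPM in tumour and 12.86 CPM in lymph node. Of the 8 markers 6 were at 0 in every lymph node library: Mlana, Tyr, Tyrp1, Dct, Sox10 and Slc45a2. In tumour Sox10 alone was at 0 in every library, while Mlana, Tyr, Dct and Slc45a2 had reads in some libraries only. Tyrp1, an enzyme of melanin synthesis, was at 4.07, 4.39 and 11.2 CPM in tumour and at 0 in every lymph node library. The part of such transcripts in the results was not tested. In bulk libraries a change in the share of cells that express a gene and a change in RNA per cell cannot be told apart.

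Of 12907 genes tested, 1203 passed the threshold (9.32%): 717 were higher (5.56%) and 486 were lower (3.77%) in tumour IL10 Tregs. The median change over all genes was -0.016. In 1190 of the 1203 genes all 3 batches moved in the fitted direction, and in 1028 the 2 groups did not overlap. Both counts come from the libraries that gave the calls and are no separate replication. Without overlap and regardless of the test, 11.8% of genes were higher and 9.44% lower. On the deposited log2 values, where the median of all genes lay at -0.20, limma called 546 genes higher and 1410 lower (27.9% of its calls higher, against 59.6% here). The deposited values carry no TMM factors, and changes near that shift depend on the scale. Each comparison was refitted without each batch in turn and without each of the 6 libraries in turn. Altogether 385 of the 1203 genes passed in all 9 of these fits, and a gene named as changed between sites in IL10 Tregs did so unless the losses are given beside it. A gene is said to be lost in a fit where its adjusted p there was not under 0.05.

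**Figure D1:**
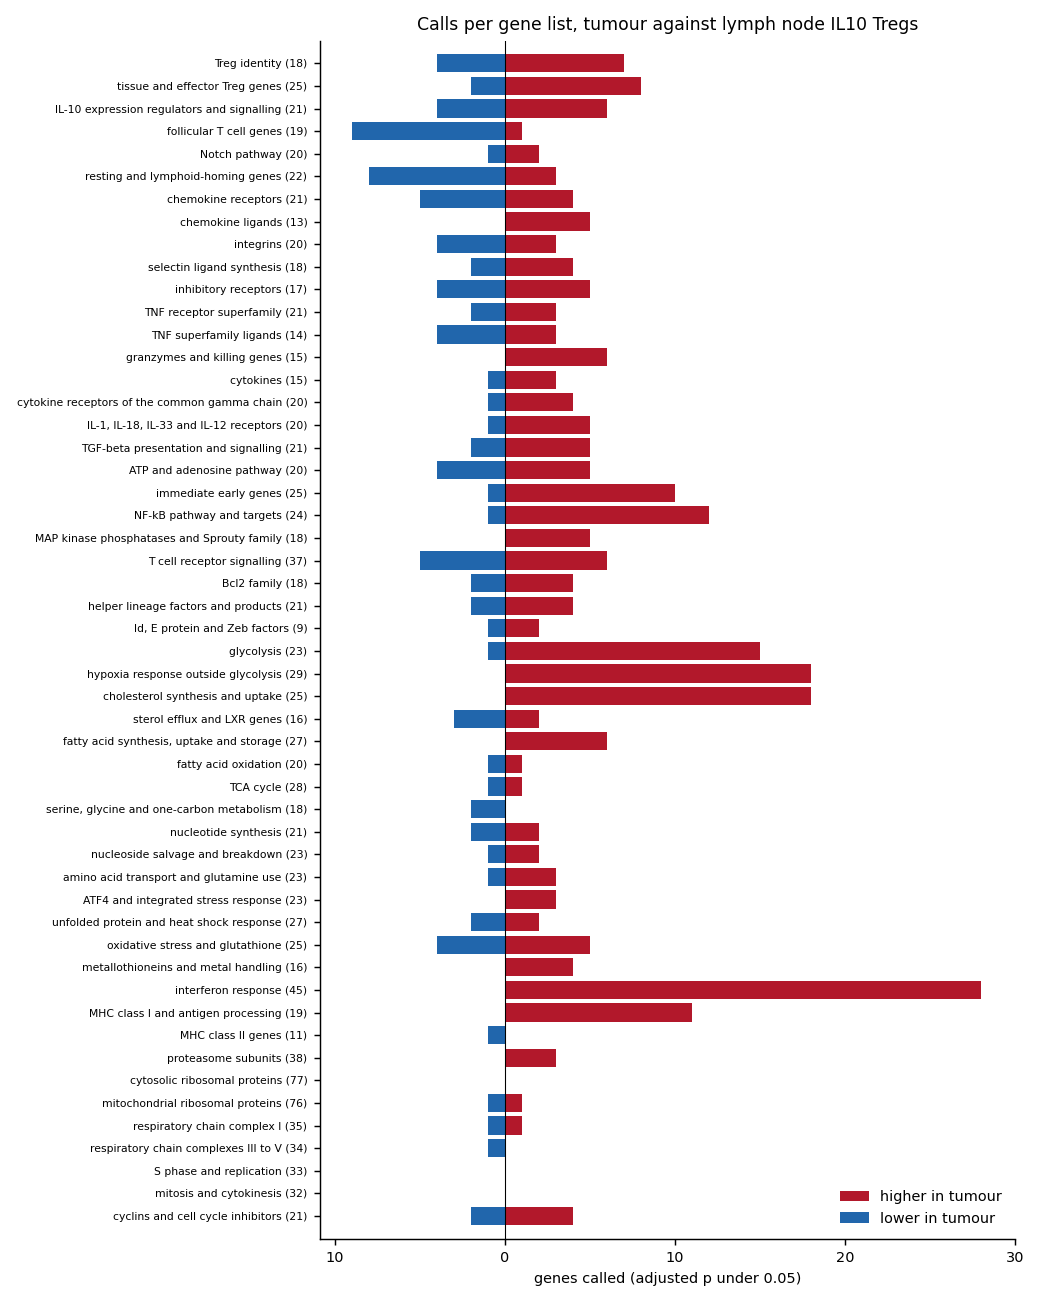
Number of genes per list that were higher (bars to the right) or lower (bars to the left) in tumour than in lymph node IL10 Tregs, by edgeR's quasi-likelihood test at an adjusted p under 0.05, with the number of genes tested in each list beside its name. Interferon response, hypoxia response, cholesterol synthesis and glycolysis genes have the longest bars to the right, and follicular and resting genes the longest to the left.

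The selection rule gave 15 genes with the largest rises. Spp1, which encodes osteopontin, stood at 172, 12.2 and 201 CPM in the tumour libraries and had no read in any lymph node library, so it was at least 2250-fold higher against a floor of 3 reads over the 3 lymph node libraries. Upp1, the uridine phosphorylase that splits uridine, stood at 40.6, 21.7 and 38.7 CPM and was at least 558-fold higher on the same floor. Gda, guanine deaminase, stood at 12.9, 21.6 and 27.9 CPM and was at least 327-fold higher. All 3 had reads in every tumour library, although Spp1 was far lower in batch 2, and the Spp1 call was lost without batch 3 (adjusted p = 0.0692). Fcrl6, an MHC class II receptor, stood at 8.37, 7.18 and 8.36 CPM, close together in the 3 batches. Sh3pxd2b (11.7, 8.62 and 9.82 CPM), Dmwd (11.3, 6.17 and 8.36 CPM), Eml1 (9.79, 1.44 and 16.8 CPM) and Sgip1 (7.13, 4.31 and 4.67 CPM) were also at 0 in lymph node, as was Ccl9, a chemokine, which ranged from 154 CPM in batch 1 down to 1.39 CPM in batch 3. Plac8, a small cysteine-rich protein, stood at 201, 108 and 138 CPM in tumour and 1.68, 0 and 0.865 CPM in lymph node and rose by 7.57 ± 0.93. Adamts14, Lama5 and Irg1, beside Tyrp1 and Adora2b given elsewhere, completed the 15 genes, with 1, 1 and 2 lymph node reads and ratios of 501 (95% counting interval 89.5 to 19800), 257 (45.8 to 10200) and 206 (56.6 to 1710). Floors and counting intervals cover counting error only. Dmwd was lost without batch 1 (adjusted p = 0.0562), Irg1 was lost without batch 3 (adjusted p = 0.0541), Ccl9 was lost without batch 1 or batch 2 (adjusted p up to 0.106) and Sh3pxd2b was lost without batch 1 or batch 3 (adjusted p up to 0.0798). Eml1 was lost in 8 of the 9 fits (adjusted p up to 0.143, without batch 1), Sgip1 was lost in 8 of the 9 fits (adjusted p up to 0.126, without batch 2) and Lama5 was lost in 8 of the 9 fits (adjusted p up to 0.164, without batch 1). Tyrp1 was lost without batch 1, batch 2 or batch 3 (adjusted p up to 0.12), and Adora2b was lost in 9 of the 9 fits (adjusted p up to 0.211, without batch 1).

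The rule also gave 15 genes with the largest falls. Cd7, an immunoglobulin superfamily receptor of T cells, stood at 7.30, 5.91 and 5.21 CPM in tumour and 66.1, 81.3 and 75.2 CPM in lymph node and fell by 3.63 ± 0.31. Tbc1d4, a Rab GTPase-activating protein that controls glucose transporter traffic, stood at 10.5, 5.49 and 2.91 CPM in tumour and 79.1, 96.7 and 66.7 CPM in lymph node and fell by 3.69 ± 0.31. In both, the highest tumour library lay far below the lowest lymph node library. Aff3, a nuclear factor, stood at 0.226, 0.169 and 0.485 CPM in tumour and 19.97, 8.88 and 6.98 CPM in lymph node and Lrig1, a brake on growth factor receptors, at 1.75, 1.86 and 1.27 CPM in tumour and 28.7, 18.6 and 13.2 CPM in lymph node. Kcna2, a potassium channel, had 1 read over the 3 tumour libraries and 3.61, 7.67 and 8.44 CPM in lymph node, a ratio of lymph node to tumour of 304 (95% counting interval 54.1 to 12000). The others were Slc24a3, Gm14085, Cxcr5, D8Ertd82e, Abca1, Marcks, Tnfsf8, Dtx1, Il17rb and Cc2d2a, with changes between -5.04 and -3.58. Cxcr5 was lost without batch 3 (adjusted p = 0.0936), Marcks was lost without batch 1 or batch 2 (adjusted p up to 0.114), Cc2d2a was lost without batch 1 or batch 3 (adjusted p up to 0.13) and Gm14085 was lost without batch 1, batch 2 or the tumour library of batch 1 (adjusted p up to 0.103). D8Ertd82e was lost in 4 of the 9 fits (adjusted p up to 0.0855, without batch 1), Slc24a3 was lost in 9 of the 9 fits (adjusted p up to 0.265, without batch 2) and Il17rb was lost in 9 of the 9 fits (adjusted p up to 0.199, without the tumour library of batch 1).

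Genes of the response to low oxygen rose together. Of 29 genes tested outside glycolysis 18 were higher and 0 lower, with a list median of 1.63 beside -0.016 for all genes. When oxygen is short, prolyl hydroxylases no longer mark HIF-1 alpha for destruction, and HIF-1 then binds DNA at the core ACGTG near its targets. Bnip3, a receptor for the removal of mitochondria, stood at 355, 232 and 379 CPM in tumour and 25.2, 14.7 and 19.04 CPM in lymph node, and the groups lay far apart. It rose by 4.03 ± 0.32 (adjusted p = 1.07e-09). Hilpda, which blocks lipolysis on lipid droplets, stood at 840.2, 548 and 511 CPM in tumour and 28.7, 25.4 and 39.1 CPM in lymph node and rose by 4.34 ± 0.27. Ero1l, an oxidase of the endoplasmic reticulum, stood at 327, 268 and 345 CPM in tumour and 43.7, 51.6 and 53.7 CPM in lymph node and rose by 2.66 ± 0.16. Hif1a itself stood at 1913, 2179 and 2143 CPM in tumour and 560.2, 791 and 608 CPM in lymph node and rose by 1.68 ± 0.13, whereas Arnt, its partner, stood at 45.1, 36.4 and 32.4 CPM in tumour and 34.2, 43.3 and 25.96 CPM in lymph node with overlapping groups. Ankrd37, Ndrg1, Egln1, Fam162a and Higd1a rose by 2.44 ± 0.40, 1.95 ± 0.29, 1.36 ± 0.20, 0.91 ± 0.12 and 1.11 ± 0.20, with overlapping groups in Higd1a alone among these 5. Vegfa, the vascular growth factor, stood at 4.13, 0.422 and 1.76 CPM in tumour and 0, 0 and 0.0541 CPM in lymph node and did not pass (adjusted p = 0.0609). Rbpj and Bhlhe40, described below, are also in the list. The other 7 calls, Mxi1, Ddit4, Ak4, Bnip3l, Kdm3a, Egln3 and P4ha1, were each lost in 2 to 9 of the 9 fits, and 12, 13 and 11 genes of the list were called without batches 1, 2 and 3.

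Genes of glycolysis, the breakdown of glucose to pyruvate and lactate, rose too. Of 23 genes 15 were higher and 1 lower, with a median of 1.18. Aldoa, aldolase, stood at 3669, 3586 and 3549 CPM in tumour and 904, 981 and 867 CPM in lymph node, and its libraries were close together within each site. Its change was 1.97 ± 0.081 (adjusted p = 3.26e-15), the smallest p of all genes tested. Pgk1, the first ATP-yielding step, stood at 354, 457 and 343 CPM in tumour and 99.5, 121 and 82.3 CPM in lymph node and rose by 1.93 ± 0.13. Slc2a1, the glucose transporter GLUT1, stood at 351, 454 and 406 CPM in tumour and 67.6, 76.6 and 66.6 CPM in lymph node, and Slc16a3, the lactate exporter MCT4, at 47.8, 90.5 and 97.9 CPM in tumour and 12.9, 18.5 and 7.19 CPM in lymph node. Both were higher in every tumour library, by 2.52 ± 0.18 and 2.63 ± 0.46. Ldha, the lactate dehydrogenase subunit that favours lactate, rose by 1.16 ± 0.11. Ldhb, the subunit that favours pyruvate, stood at 41.98, 31.3 and 33.1 CPM in tumour and 49.7, 52.2 and 56.8 CPM in lymph node and was the gene that fell, by 0.59 ± 0.18, a call lost in 7 of the 9 fits (adjusted p up to 0.343, without batch 3). Hk2, hexokinase 2, stood at 27.7, 22.9 and 19.1 CPM in tumour and 15.1, 7.37 and 8.38 CPM in lymph node without passing the test (adjusted p = 0.301). Of 28 genes of the citrate cycle list 1 rose, the transaminase gene Got1 at 2.13 ± 0.19, and 1 fell, Pdha1 of pyruvate dehydrogenase at -0.55 ± 0.13, lost without batch 1, batch 2 or the lymph node library of batch 2 (adjusted p up to 0.0769).

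The promoters of 4 of these genes are shown because they rose together and carry the HIF core. The 250 bases before the RefSeq start (GRCm38.p6) are given on the strand of the gene, with matches to ACGTG on either strand in capitals.
Bnip3, chr7:138909507-138909756, minus strand: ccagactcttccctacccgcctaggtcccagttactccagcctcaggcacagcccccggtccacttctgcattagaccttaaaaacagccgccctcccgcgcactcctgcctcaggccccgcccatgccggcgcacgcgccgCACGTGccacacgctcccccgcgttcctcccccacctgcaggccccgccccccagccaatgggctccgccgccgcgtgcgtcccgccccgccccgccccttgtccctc
Ankrd37, chr8:45999851-46000100, minus strand: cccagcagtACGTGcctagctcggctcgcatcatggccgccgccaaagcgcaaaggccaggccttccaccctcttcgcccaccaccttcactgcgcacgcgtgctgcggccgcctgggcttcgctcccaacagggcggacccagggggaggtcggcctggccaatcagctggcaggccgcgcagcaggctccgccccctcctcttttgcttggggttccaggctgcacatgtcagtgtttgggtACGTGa
Pgk1, chrX:106186850-106187099, plus strand: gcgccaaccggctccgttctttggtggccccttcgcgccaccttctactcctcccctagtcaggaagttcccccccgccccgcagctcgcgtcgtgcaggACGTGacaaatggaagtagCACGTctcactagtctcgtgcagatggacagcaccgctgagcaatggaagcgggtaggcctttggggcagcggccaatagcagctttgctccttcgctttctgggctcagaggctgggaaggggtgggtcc
Ldha, chr7:46845554-46845803, plus strand, 1 of its 2 listed promoters: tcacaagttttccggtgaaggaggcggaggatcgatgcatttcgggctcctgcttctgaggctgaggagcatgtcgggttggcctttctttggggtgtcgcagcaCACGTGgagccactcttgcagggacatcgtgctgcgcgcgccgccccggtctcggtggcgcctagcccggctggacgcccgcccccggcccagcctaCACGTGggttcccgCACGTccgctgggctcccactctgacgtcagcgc
The Bnip3 window held 1 match, which begins 108 bases before the start and reads CACGTG, the Ankrd37 and Pgk1 windows 2 each and the Ldha window 3. A match that reads CACGTG fits on both strands and was counted once. Ldha has 2 listed promoters, and the window shown was taken as the first that held a match. Promoters were found by symbol for 15 of the 18 hypoxia genes that rose and for 14 of the 15 glycolysis genes, some with several starts. ACGTG lay in 58.3% of the 24 promoters of the former and in 10 of the 20 promoters of the latter, against 21.5% of the 13033 promoters of all genes tested, which cover 10296 of 12907 genes. Over the whole lists, risen or not, it lay in 19 of 34 hypoxia promoters and 14 of 33 glycolysis promoters. Those of the former come from 23 of 29 genes, a coverage like that of all genes tested. Genes without a promoter could shift both shares. Hypoxia genes were listed as known responders, so the share describes the list and is not tied to the rise. The windows differed in base composition, with 66.3% and 61.6% G or C in the 2 sets and 59.4% over all. A match describes the letters and is no measure of binding.

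**Figure D2:**
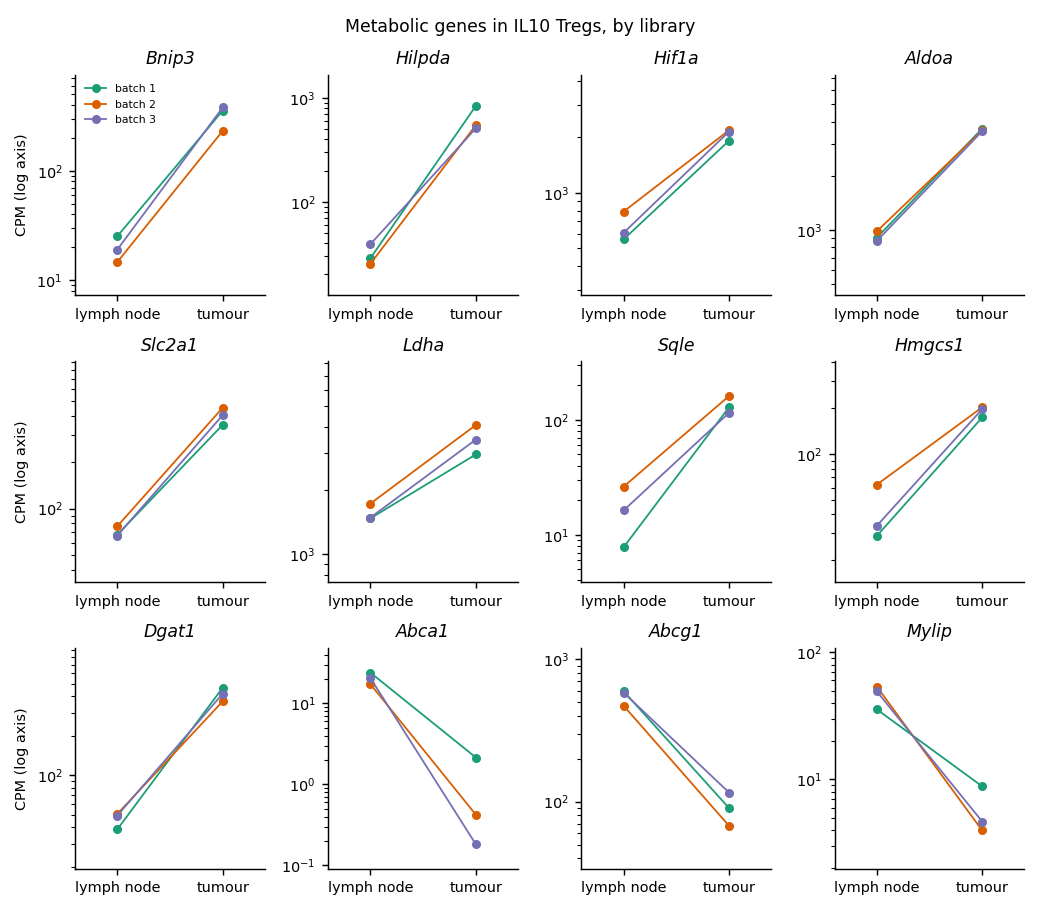
Level of 12 metabolic genes (CPM on effective library sizes, log axis) in the 3 lymph node and the 3 tumour IL10 Treg libraries, with a line joining the libraries of each batch. For Bnip3, Hilpda, Aldoa, Slc2a1, Sqle and Hmgcs1 the lines rise from lymph node to tumour in all 3 batches, and for Abca1 and Abcg1 they fall in all 3.

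Cholesterol genes of synthesis and uptake rose, and 3 LXR target genes fell. Of 25 genes of cholesterol synthesis and uptake 18 were higher and 0 lower, with a median of 1.61. These genes are driven by SREBP-2, which is cut free when the endoplasmic reticulum runs low in sterol. Sqle, squalene epoxidase, stood at 129, 161 and 115 CPM in tumour and 7.78, 26.2 and 16.3 CPM in lymph node and rose by 3.13 ± 0.36. Hmgcs1, the synthase that feeds the pathway, stood at 173, 202 and 196 CPM in tumour and 28.9, 62.6 and 33.6 CPM in lymph node and rose by 2.28 ± 0.24. In both the tumour libraries lay above all lymph node libraries. Insig1, Idi1, Fdps, Fdft1, Cyp51 and Sc4mol rose by 1.64 to 2.16. Mvd, Ebp and Dhcr7 of the same pathway stood at -0.0028 ± 0.24, 0.092 ± 0.13 and 0.15 ± 0.22, none passing the test.

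Abca1, which loads cholesterol onto apolipoprotein A-I, stood at 2.15, 0.422 and 0.182 CPM in tumour and 24.01, 17.3 and 20.6 CPM in lymph node and fell by 4.47 ± 0.54. Abcg1, which exports it to HDL, stood at 90.1, 67.7 and 116 CPM in tumour and 595, 471 and 582 CPM in lymph node and fell by 2.60 ± 0.16 (adjusted p = 6.95e-12). Mylip, a ubiquitin ligase, stood at 8.83, 3.97 and 4.67 CPM in tumour and 35.6, 53.8 and 49.3 CPM in lymph node and fell by 3.07 ± 0.39. All 3 are classic targets of the sterol-sensing receptor LXR, and for each the highest tumour library lay below the lowest lymph node library. The list of 16 efflux and LXR genes held 2 that rose, Npc2 at 0.94 ± 0.092 and Abca7 at 0.94 ± 0.29, the latter lost in 7 of the 9 fits (adjusted p up to 0.35, without batch 3). Srebf1, another LXR target, did not pass (0.40 ± 0.20). The 250 bases before the start of Hmgcs1 are shown for their CCAAT boxes, the site of the factor NF-Y that acts with SREBP-2, in capitals on either strand.
Hmgcs1, chr13:119690101-119690350, plus strand: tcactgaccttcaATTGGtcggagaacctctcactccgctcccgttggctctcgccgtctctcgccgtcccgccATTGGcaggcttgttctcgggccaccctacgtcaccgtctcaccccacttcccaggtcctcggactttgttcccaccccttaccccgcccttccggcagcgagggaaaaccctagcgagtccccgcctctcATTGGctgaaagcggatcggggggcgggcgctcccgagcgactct
This window held 3 matches, and CCAAT lay in 35.4% of all promoters. The share over the cholesterol list is void, because promoters were found for 11 of the 18 genes that rose.

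Of the list of fatty acid synthesis, uptake and storage most genes did not pass. Dgat1, which makes triglyceride, stood at 466, 366 and 419 CPM in tumour and 38.6, 50.5 and 49.2 CPM in lymph node and rose by 3.18 ± 0.24. Plin2, a coat protein of lipid droplets, stood at 158, 145 and 100.1 CPM in tumour and 19.04, 15.8 and 29.4 CPM in lymph node and rose by 2.63 ± 0.34. Of its 27 genes 6 were higher and 0 lower, with a median of 0.12, and the other 4 calls were Hilpda, Elovl6 (2.09 ± 0.37), Acsl4 and Pnpla2. Fasn, the fatty acid synthase, did not pass (-0.29 ± 0.20), and of 20 genes of fatty acid oxidation 1 rose and 1 fell. Acsl4 was lost without batch 3 (adjusted p = 0.0608), and Pnpla2 was lost in 6 of the 9 fits (adjusted p up to 0.254, without batch 2).

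Treg identity genes split. Of 18 tested 7 were higher and 4 lower, with a median of 0.41. Tnfrsf18, the receptor GITR, stood at 3712, 3365 and 3352 CPM in tumour and 1798, 1518 and 1912 CPM in lymph node and rose by 1.00 ± 0.10. Tnfrsf4, the receptor OX40, rose by 0.87 ± 0.16, and Entpd1, the ectoenzyme CD39 that degrades ATP, stood at 265, 331 and 374 CPM in tumour and 92.8, 171 and 125 CPM in lymph node and rose by 1.34 ± 0.16. Folr4, now called Izumo1r, stood at 509, 440.2 and 489 CPM in tumour and 1141, 1047 and 859 CPM in lymph node and fell by 1.08 ± 0.10. Nt5e, the ectoenzyme CD73 that makes adenosine from the product of CD39, stood at 334, 268 and 202 CPM in tumour and 659, 670.2 and 853 CPM in lymph node and fell by 1.43 ± 0.21. Ctla4 and Il2rb rose by 0.73 ± 0.18 and 0.62 ± 0.10, and Nrp1 and Gpr83 fell, with changes of -1.30 ± 0.27 and -2.34 ± 0.56. Ctla4 was lost without batch 1 (adjusted p = 0.149), Il2rb lost without batch 3 (adjusted p = 0.0935), Nrp1 lost without batch 1 (adjusted p = 0.104) and Gpr83 lost without batch 3 (adjusted p = 0.199). Il2ra and Ikzf2, which encodes Helios, stood at 0.40 ± 0.24 and 0.10 ± 0.17, neither passing. Cd5 and Lrrc32 were the remaining rises, at 0.41 ± 0.094 and 0.70 ± 0.22, both with overlapping groups. Cd5 was lost without batch 3, the tumour library of batch 3 or the lymph node library of batch 3 (adjusted p up to 0.291), and Lrrc32 was lost in 7 of the 9 fits (adjusted p up to 0.341, without batch 3).

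Genes of tissue and effector Tregs also split, with 8 of 25 higher and 2 lower and a median of 0.87. Tnfrsf9, the receptor 4-1BB, stood at 4284, 4485 and 5009.7 CPM in tumour and 813, 1031 and 1122 CPM in lymph node and rose by 2.23 ± 0.24. Areg, the tissue repair factor amphiregulin, stood at 281, 385 and 185 CPM in tumour and 14.2, 24.98 and 11.4 CPM in lymph node and rose by 4.07 ± 0.58. Fgl2, a secreted suppressive protein, stood at 621, 532 and 742 CPM in tumour and 178, 181 and 302 CPM in lymph node, and Samsn1, an adaptor that dampens lymphocyte signals, rose by 1.16 ± 0.12. Itgae, the integrin CD103 that anchors cells to epithelium, stood at 137, 256 and 138 CPM in tumour and 771, 894 and 852 CPM in lymph node and fell by 2.32 ± 0.21. Icos was lower, at -0.53 ± 0.14, a call lost in 5 of the 9 fits (adjusted p up to 0.0993, without batch 2). Klrg1, Ccr8 and Il1rl1, the IL-33 receptor, stood at 1.40 ± 0.64, 0.73 ± 0.28 and -0.69 ± 0.26, none passing. Gzmb rose by 2.93 ± 0.67, and Rora, Nfil3 and Tff1 by 1.09 ± 0.25, 1.56 ± 0.37 and 3.00 ± 0.85. The call of Gzmb was lost without batch 3 (adjusted p = 0.169), Nfil3 lost without batch 2 or the lymph node library of batch 1 (adjusted p up to 0.0672), Rora lost without batch 2, batch 3 or the lymph node library of batch 3 (adjusted p up to 0.0635) and Tff1 lost in 7 of the 9 fits (adjusted p up to 0.238, without batch 2).

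Regulators of Il10 changed although Il10 itself did not pass. Bhlhe40, a repressor of Il10 in helper T cells and a hypoxia target, stood at 916, 955 and 585 CPM in tumour and 36.3, 51.1 and 30.7 CPM in lymph node and rose by 4.39 ± 0.49. Stat3, which relays IL-10 and IL-6 signals, stood at 701, 804 and 769 CPM in tumour and 268, 436 and 305 CPM in lymph node and rose by 1.21 ± 0.13. Irf4 stood at 31.00, 36.5 and 39.5 CPM in tumour and 91.4, 76.9 and 99.6 CPM in lymph node and fell by 1.34 ± 0.25. Il6ra, the IL-6 receptor, stood at 17.9, 9.29 and 16.8 CPM in tumour and 69.1, 68.6 and 78.3 CPM in lymph node and fell by 2.29 ± 0.23. Maf, Prdm1, which encodes Blimp-1, and Batf stood at -0.39 ± 0.30, 0.23 ± 0.31 and -0.31 ± 0.12, and Ahr at 33.7, 28.1 and 23.9 CPM in tumour and 82.9, 105 and 114 CPM in lymph node, none passing. Of the 21 genes of this list 6 were higher and 4 lower, with a median of 0.12.

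Follicular T cell genes fell. Of 19 tested 9 were lower and 1 higher, with a median of -1.58. Cxcr5, the receptor that leads cells into B cell follicles, stood at 0.735, 4.39 and 0.303 CPM in tumour and 23.4, 66.97 and 31.96 CPM in lymph node and fell by 4.71 ± 1.02, lost without batch 3 (adjusted p = 0.0936). Slamf6, a receptor of the SLAM family, stood at 119.8, 150.0 and 91.2 CPM in tumour and 640.4, 643 and 572 CPM in lymph node and fell by 2.36 ± 0.16. Sh2d1a, its adaptor SAP, stood at 72.2, 45.4 and 79.6 CPM in tumour and 170.0, 165 and 235 CPM in lymph node and fell by 1.58 ± 0.15. Btla, Tox, Id3 and Tnfsf8, the CD30 ligand, fell, with changes of -1.67 ± 0.17, -0.81 ± 0.12, -3.07 ± 0.35 and -4.16 ± 0.52. Pdcd1, which encodes PD-1, was the gene that rose, at 926, 821 and 870.3 CPM in tumour and 244, 347 and 322 CPM in lymph node, by 1.54 ± 0.12. Bcl6, the master factor of follicular cells, stood at 0.622, 3.21 and 5.15 CPM in tumour and 1.43, 3.64 and 4.76 CPM in lymph node and did not pass. Summed B cell markers were lower in tumour too, at the values given above, and their part was not tested. Of 20 Notch pathway genes 2 were higher and 1 lower, with a median of 0.033, so the list as a whole did not move. Dtx1, a Notch target and anergy gene, stood at 1.87, 2.53 and 3.09 CPM in tumour and 31.98, 65.8 and 33.8 CPM in lymph node and fell by 4.10 ± 0.64, whereas Rbpj, the DNA-binding partner of Notch, stood at 191, 191 and 181 CPM in tumour and 28.1, 46.8 and 35.4 CPM in lymph node and rose by 2.36 ± 0.22.

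Resting and lymphoid-homing genes fell more often than they rose, with 8 of 22 lower and 3 higher and a median of -0.79. The change was negative in 16 of the 22. In DN and Ebi3 Tregs 18 and 16 were lower and 2 higher in each. Over all genes 10.5% were lower in tumour DN Tregs, 4.01% in Ebi3 Tregs and 3.77% in IL10 Tregs. The difference of site effects from DN Tregs was called for 7 of the 22, and that from Ebi3 Tregs for 1. In all of these the IL10 effect was the higher one. S1pr1, the receptor by which cells leave lymphoid tissue, stood at 42.9, 45.4 and 61.5 CPM in tumour and 188, 195 and 250.5 CPM in lymph node and fell by 2.08 ± 0.18. Tcf7, which encodes TCF-1, stood at 5.49, 2.11 and 6.06 CPM in tumour and 45.8, 29.5 and 18.8 CPM in lymph node and fell by 2.73 ± 0.37. Klf3 and Foxp1 fell, with changes of -2.64 ± 0.36 and -1.27 ± 0.15. Ccr7, a receptor of node entry, stood at 103, 43.2 and 23.4 CPM in tumour and 146, 92.3 and 75.8 CPM in lymph node without passing (adjusted p = 0.107). Cd69, which holds cells in tissue by binding S1PR1, stood at 644, 374 and 448 CPM in tumour and 253, 218 and 277 CPM in lymph node and rose by 0.94 ± 0.17. Ly6c1 stood at 27.3, 18.8 and 16.8 CPM in tumour and 5.97, 5.01 and 3.84 CPM in lymph node and rose by 2.08 ± 0.30. Satb1 was the other rise, at 0.88 ± 0.22, lost in 4 of the 9 fits (adjusted p up to 0.116, without batch 3).

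Of 21 genes of the chemokine receptor list 4 were higher and 5 lower. Among the lower ones were Ptger4 and Gpr183, which are not chemokine receptors. Gpr183 was lost in 6 of the 9 fits (adjusted p up to 0.143, without batch 1). Ccrl2, a receptor that presents chemerin, stood at 414, 337 and 348 CPM in tumour and 77.01, 95.9 and 79.2 CPM in lymph node and rose by 2.15 ± 0.34. Ccr1 and Ccr2 were higher by 2.99 ± 0.65 and 2.32 ± 0.58, but Ccr1 was lost without batch 3 (adjusted p = 0.247) and Ccr2 was lost in 6 of the 9 fits (adjusted p up to 0.229, without batch 3). Ptger4, a prostaglandin E2 receptor, stood at 57.02, 87.9 and 65.2 CPM in tumour and 238, 302 and 246 CPM in lymph node and fell by 1.92 ± 0.19. Ccr6 and Ccr4 were lower, at -2.06 ± 0.55 and -1.58 ± 0.45, but Ccr6 was lost in 4 of the 9 fits (adjusted p up to 0.113, without batch 1) and Ccr4 was lost in 8 of the 9 fits (adjusted p up to 0.252, without batch 1). Cxcr3, Cxcr6 and Ccr8 did not pass. Among 13 chemokine ligands 5 were higher and 0 lower. Ccl3 stood at 357, 328 and 325 CPM in tumour and 6.22, 9.11 and 1.73 CPM in lymph node and rose by 6.02 ± 0.69, and Ccl5 stood at 1511, 318 and 937 CPM in tumour and 102, 60.4 and 80.5 CPM in lymph node and rose by 3.23 ± 0.51. For both, all tumour libraries lay above all lymph node libraries, with Ccl5 lowest in batch 2. Ccl4 stood at 907, 527 and 887 CPM in tumour and 5.60, 80.7 and 9.68 CPM in lymph node, where batch 2 held the highest lymph node value and the call was lost without batch 1 or batch 3 (adjusted p up to 0.217).

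Integrins and adhesion genes followed no single direction. Itgb3 and Itgav, which pair to form the vitronectin receptor, stood at 105, 36.7 and 63.8 CPM in tumour and 9.95, 9.26 and 14.01 CPM in lymph node and at 349, 180.0 and 279 CPM in tumour and 89.9, 92.8 and 111 CPM in lymph node. They rose by 2.59 ± 0.34 and 1.43 ± 0.30. Itgb1 fell by 1.02 ± 0.23 and Itgb2 rose by 0.51 ± 0.092, but Itgb1 was lost without batch 2 (adjusted p = 0.0542) and Itgb2 was lost without batch 3 (adjusted p = 0.0509). In all, 3 of 20 integrins were higher and 4 lower. Selplg, the P-selectin ligand PSGL-1, stood at 1751, 2257 and 1872 CPM in tumour and 1238, 1494 and 1403 CPM in lymph node and rose by 0.50 ± 0.099. St3gal4, which adds the sialic acid of selectin ligands, rose by 1.50 ± 0.27. Of 18 genes of selectin ligand synthesis 4 were higher and 2 lower, with a median of -0.018.

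Inhibitory receptors gave 5 of 17 higher and 4 lower, and TNF receptors 3 of 21 higher and 2 lower. Beside Pdcd1 and Ctla4, Lilrb4 stood at 353, 129 and 284 CPM in tumour and 1.62, 18.00 and 2.76 CPM in lymph node and rose by 5.17 ± 1.01, and Cd200r1 was higher by 0.65 ± 0.20, but Lilrb4 was lost without batch 1 or batch 3 (adjusted p up to 0.155) and Cd200r1 was lost in 7 of the 9 fits (adjusted p up to 0.452, without batch 1). Tigit and Lag3, receptors of many effector Tregs, stood at 1632, 969 and 1420.0 CPM in tumour and 1299, 1205 and 1423 CPM in lymph node and at 198, 366 and 293 CPM in tumour and 215, 442 and 194 CPM in lymph node. Neither differed by more than the spread between libraries, at 0.0017 ± 0.34 and 0.036 ± 0.48. Havcr2, which encodes TIM-3, stood at 1.06 ± 0.66 without passing. Btla fell as given above, and Cd160 and Cd200 fell, with changes of -2.21 ± 0.45 and -0.89 ± 0.21, but Cd160 was lost without batch 3 (adjusted p = 0.0708) and Cd200 was lost without batch 3 or the lymph node library of batch 2 (adjusted p up to 0.052). Among ligands of the TNF family 3 of 14 were higher and 4 lower. Ltb, lymphotoxin beta, stood at 1299, 928 and 997 CPM in tumour and 738, 510.3 and 615 CPM in lymph node and rose by 0.79 ± 0.12. Cd40lg, the ligand that helps B cells, stood at 7.69, 14.7 and 15.3 CPM in tumour and 34.03, 37.1 and 25.9 CPM in lymph node and fell by 1.39 ± 0.23.

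Genes of target cell killing rose in 6 of 15 cases and fell in 0, with a median of 1.56. Prf1, perforin, stood at 48.9, 91.8 and 99.2 CPM in tumour and 2.43, 10.3 and 10.9 CPM in lymph node and rose by 3.44 ± 0.62. Gzmb, granzyme B, stood at 4476, 4541 and 4839.6 CPM in tumour and 495, 814 and 568 CPM in lymph node, so that every tumour library was above every lymph node library, and the call was lost without batch 3 (adjusted p = 0.169). Serpinb9, the granzyme B inhibitor that protects killer cells, stood at 198, 206 and 226 CPM in tumour and 34.9, 59.3 and 42.99 CPM in lymph node and rose by 2.21 ± 0.23. Ctsw and Serpinb6b rose by 1.61 ± 0.22 and 1.56 ± 0.30, and Nkg7 by 2.49 ± 0.47, the last lost without batch 3 (adjusted p = 0.112). Of 15 cytokine genes tested 3 were higher and 1 lower, and of 21 helper lineage genes 4 and 2. Ifng stood at 48.5, 50.2 and 60.8 CPM in tumour and 5.72, 9.57 and 9.73 CPM in lymph node and rose by 2.64 ± 0.53. Tbx21, which encodes T-bet, was higher by 1.87 ± 0.41, a call lost without batch 3 (adjusted p = 0.163). Il16, a CD4 ligand, stood at 228, 309.8 and 238 CPM in tumour and 487, 752 and 549 CPM in lymph node and fell by 1.19 ± 0.12. NK cell markers summed to at most 4.33 CPM in any of the 6 libraries.

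Among cytokine receptors and their signalling, common gamma chain genes gave 4 of 20 higher and 1 lower, IL-1 and IL-12 family receptor genes 5 of 20 and 1, and TGF-beta genes 5 of 21 and 2. Ifngr1, the ligand-binding chain of the interferon gamma receptor, stood at 3729, 3009 and 3562 CPM in tumour and 650.0, 494 and 764 CPM in lymph node and rose by 2.44 ± 0.13 (adjusted p = 8.22e-13). Cish, a feedback inhibitor of IL-2 signalling, stood at 559, 749 and 524 CPM in tumour and 265, 307 and 261 CPM in lymph node and rose by 1.11 ± 0.16. Jak3 rose by 0.94 ± 0.18 with overlapping groups. Tgfbr1, the signalling TGF-beta receptor, stood at 67.04, 51.8 and 72.4 CPM in tumour and 179.9, 158 and 255 CPM in lymph node and fell by 1.62 ± 0.18, while Skil, a repressor of SMAD proteins, rose by 0.75 ± 0.14 with overlapping groups. In the list of ATP and adenosine genes 5 of 20 were higher and 4 lower. P2ry10 and Pde4d, which degrades cyclic AMP, rose by 1.63 ± 0.16 and 2.12 ± 0.30, and Slc29a1, the nucleoside transporter, fell by 0.94 ± 0.17. Adora2b, a low-affinity adenosine receptor, had reads in tumour only, at 4.92, 3.46 and 9.70 CPM, and its call was lost in 9 of the 9 fits (adjusted p up to 0.211, without batch 1).

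Signal-induced genes were higher. Of 25 immediate early genes 10 were higher and 1 lower, with a median of 1.06. Zfp36, which destabilises cytokine mRNAs, stood at 773, 486 and 546 CPM in tumour and 178, 190.1 and 150.2 CPM in lymph node and rose by 1.76 ± 0.16. Jun, a subunit of AP-1, stood at 39.5, 41.5 and 20.1 CPM in tumour and 0.809, 1.75 and 0.487 CPM in lymph node and rose by 5.25 ± 0.66. Junb and Klf6 rose by 1.92 ± 0.29 and 2.17 ± 0.27. Fos stood at 587, 294 and 158 CPM in tumour and 21.03, 14.96 and 15.1 CPM in lymph node, highest in batch 1, and its change of 4.11 ± 0.95 was lost without batch 1 or the lymph node library of batch 1 (adjusted p up to 0.204). Egr2, a target of T cell receptor signals, was the gene that fell, at 9.05, 7.01 and 8.001 CPM in tumour and 31.7, 52.2 and 30.3 CPM in lymph node, lost without batch 1 (adjusted p = 0.0562). Nr4a1 and Egr1 did not pass, at 1.06 ± 0.36 and -0.49 ± 0.34. Dissociation of solid tissue can itself induce such genes, and the labels give no handling times for the 2 sites, so handling and site cannot be told apart.

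NF-kB genes rose in 12 of 24 cases and fell in 1, with a median of 0.66. Tnfaip3, the feedback inhibitor A20, stood at 1201, 907 and 585 CPM in tumour and 109, 128 and 102 CPM in lymph node and rose by 2.95 ± 0.26. Nfkbia, the inhibitor I-kappa-B alpha, stood at 2855, 1954 and 1858 CPM in tumour and 801, 534 and 734 CPM in lymph node and rose by 1.68 ± 0.18. Traf1, an adaptor of 4-1BB, stood at 388, 573 and 407 CPM in tumour and 149, 203 and 109 CPM in lymph node and rose by 1.59 ± 0.13. Nfkb2 and Nfkbiz rose by 1.19 ± 0.24 and 1.84 ± 0.18, whereas Rela and Nfkb1 stood at -0.013 ± 0.16 and -0.32 ± 0.15. Cd83 fell by 2.41 ± 0.38. Of 18 MAP kinase phosphatase and Sprouty genes 5 were higher and 0 lower, led by Dusp1 at 2791, 1312 and 1078 CPM in tumour and 260.3, 149 and 241 CPM in lymph node, a change of 2.87 ± 0.47. Genes of T cell receptor signalling gave 6 of 37 higher and 5 lower. Themis, an adaptor of that pathway, stood at 47.4, 64.2 and 67.3 CPM in tumour and 10.08, 11.1 and 9.84 CPM in lymph node and rose by 2.50 ± 0.26, while Fyn, Prkcq and Nfatc1 fell, with changes of -0.90 ± 0.11, -1.005 ± 0.12 and -0.97 ± 0.19.

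**Figure D3:**
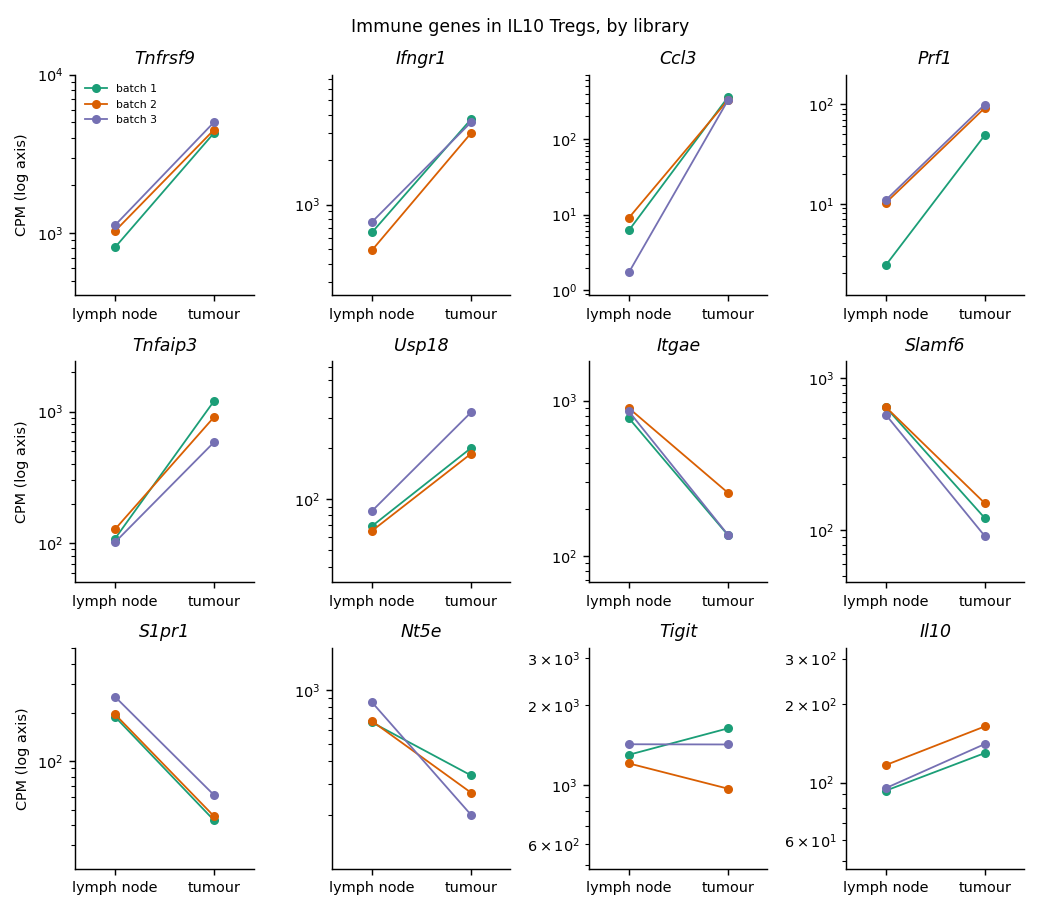
Level of 12 immune genes (CPM on effective library sizes, log axis) in the 3 lymph node and the 3 tumour IL10 Treg libraries, with a line joining the libraries of each batch. The lines of Tnfrsf9, Ifngr1, Ccl3, Prf1, Tnfaip3 and Usp18 rise in all 3 batches, those of Itgae, Slamf6, S1pr1 and Nt5e fall in all 3, and those of Tigit rise in batch 1 and fall in batch 2.

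Interferon response genes rose. All 45 tested genes had a positive change, 28 were called higher and 0 lower, and the median was 1.04. Ly6a, the surface protein Sca-1, stood at 4930.1, 4263 and 6129.5 CPM in tumour and 1359, 1687 and 1586 CPM in lymph node and rose by 1.72 ± 0.20. Usp18, which trims ISG15 and silences the type I receptor, stood at 199.5, 185 and 324 CPM in tumour and 69.2, 64.9 and 85.01 CPM in lymph node and rose by 1.69 ± 0.26. Irf7 and Ifit1 stood at 217, 327 and 321 CPM in tumour and 104, 161 and 108 CPM in lymph node and at 293, 322 and 561 CPM in tumour and 121, 165 and 166 CPM in lymph node. They rose by 1.24 ± 0.16 and 1.40 ± 0.22, with no overlap between the groups. Irf8, Iigp1 and Igtp, which interferon gamma induces, rose by 1.84 ± 0.30, 1.15 ± 0.23 and 0.93 ± 0.15. The list had 22, 22 and 18 calls without batches 1, 2 and 3, and 16 without the tumour library of batch 3.

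MHC class I genes rose by small amounts, with 11 of 19 higher and 0 lower and a median of 0.56. H2-D1 and H2-K1, the classical heavy chains, stood at 3567, 4022 and 4305 CPM in tumour and 2274, 2723 and 2797 CPM in lymph node and at 9472, 8262 and 9523 CPM in tumour and 6233, 6126 and 6413 CPM in lymph node. They rose by 0.61 ± 0.075 and 0.54 ± 0.076, and B2m, the light chain, by 0.68 ± 0.088, with overlapping groups in B2m. Tap1, the peptide transporter, rose by 1.01 ± 0.15. Class I genes belong to a family of similar sequences, and reads shared between members may have been split or dropped in counting. Of 38 proteasome subunits the 3 that rose were the interferon-induced Psmb8, Psmb9 and Psmb10, at 0.62 ± 0.091, 0.56 ± 0.095 and 0.45 ± 0.089, Psmb9 lost without batch 3 (adjusted p = 0.0576) and Psmb10 lost without batch 2 or batch 3 (adjusted p up to 0.0807). Of 11 class II genes 1 passed, H2-Ob, which fell by 1.79 ± 0.34 and was lost without batch 1 (adjusted p = 0.0558). Cd74 stood at 877, 568 and 893 CPM in tumour and 437, 441 and 548 CPM in lymph node, without overlap but without passing (adjusted p = 0.166).

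Growth and translation genes showed few calls. Of 33 S phase genes and 32 mitosis genes 0 passed by edgeR's test, with medians of -0.10 and -0.23. At an unadjusted p under 0.05 there were 1 and 2, DESeq2 called 0 and 0, and limma on the deposited values called 1 lower in each list. Mki67, the proliferation marker, stood at 134, 246 and 213 CPM in tumour and 219, 212 and 238 CPM in lymph node, with overlapping groups. Of 77 cytosolic ribosomal protein genes 0 passed by edgeR, with a median of -0.17 and 7 lower at an unadjusted p under 0.05. DESeq2 called 0 of them, whereas limma on the deposited values called 35 of 73 lower, on a scale whose overall median was -0.20. Genes of mitochondrial ribosomes and of the respiratory chain gave at most 1 call in each direction per list. Of 21 cyclin and cell cycle inhibitor genes 4 were higher and 2 lower. Cdkn2d, an inhibitor of CDK4 and CDK6, rose by 1.25 ± 0.20 and Cdk6 by 1.14 ± 0.26, while Cdk4 fell by 0.58 ± 0.13, but Cdk6 was lost without batch 3 (adjusted p = 0.0695) and Cdk4 was lost without batch 1 or batch 3 (adjusted p up to 0.164).

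Other metabolic genes changed singly. Amino acid transport gave 3 of 23 higher and 1 lower, metal handling 4 of 16 and 0, and serine metabolism 0 of 18 and 2. Nucleotide synthesis gave 2 of 21 and 2, oxidative stress 5 of 25 and 4, and Id and E protein genes 2 of 9 and 1. Odc1, the first enzyme of polyamine synthesis, stood at 590.0, 608 and 607 CPM in tumour and 42.7, 70.5 and 40.9 CPM in lymph node and rose by 3.54 ± 0.21 (adjusted p = 4.69e-12). Fth1, the ferritin heavy chain that stores iron, rose by 0.98 ± 0.087, and Mt1, a metallothionein that binds zinc, stood at 195, 41.05 and 121 CPM in tumour and 10.202, 4.33 and 5.46 CPM in lymph node and rose by 3.97 ± 0.59. Phgdh, the first enzyme of serine synthesis, fell by 0.99 ± 0.16. Adssl1, of AMP synthesis, stood at 36.4, 37.7 and 37.8 CPM in tumour and 3.23, 1.37 and 2.81 CPM in lymph node and rose by 3.96 ± 0.70. Gpx4 and Prdx5, which reduce peroxides, rose by 0.82 ± 0.12 and 0.76 ± 0.12, whereas Prdx1 fell by 0.82 ± 0.13. Id2, an inhibitor of E proteins, stood at 3347, 1434 and 2277 CPM in tumour and 319.8, 286 and 449 CPM in lymph node and rose by 2.70 ± 0.21, while Id3, its relative, stood at 6.11, 4.98 and 1.33 CPM in tumour and 26.00, 21.8 and 54.1 CPM in lymph node and fell by 3.07 ± 0.35.

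The tumour effect was then set against that in DN Tregs, by testing the difference of the 2 site effects in the same fit. Of 12907 genes 579 differed (4.49%): 256 had a higher value of the IL10 effect (1.98%) and 323 a lower one (2.5%). In DN Tregs themselves 3017 genes passed between sites (23.4%), 12.9% of all genes being higher and 10.5% lower in tumour. Of the 8 genes per direction with the smallest p, the following had a lower IL10 effect. Fgl2 averaged 632 ± 106 CPM (SD, n = 3) in tumour and 220.0 ± 70.9 CPM in lymph node IL10 Tregs, but 317 ± 63.3 and 8.13 ± 4.30 CPM in DN Tregs. Its site effect was 1.56 ± 0.18 in IL10 and 5.33 ± 0.22 in DN cells, a difference of -3.77 ± 0.27. Itgae averaged 177 ± 68.6 and 839 ± 62.7 CPM in IL10 Tregs and 98.3 ± 28.1 and 42.1 ± 22.2 CPM in DN Tregs. It fell with site in the former and rose in the latter, a difference of -3.61 ± 0.29. Icos was lower in tumour in IL10 Tregs, with the losses given above, and rose in DN Tregs, with a difference of -2.18 ± 0.20. It averaged 2842 and 4113 CPM in tumour and lymph node IL10 Tregs and 1682 and 544 CPM in DN Tregs. S100a10, Srgn and Vps54 did not pass between sites in IL10 cells and rose in DN cells, with differences of -1.74 ± 0.18, -1.45 ± 0.16 and -1.73 ± 0.19. AW112010 and Cldn25 completed this direction, at -1.62 ± 0.16 and -2.20 ± 0.23. For every gene of this direction named here the lymph node mean was higher in IL10 than in DN Tregs. The tumour mean was higher in IL10 Tregs too, except for S100a10 and Cldn25.

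Other genes had a higher IL10 effect by the same rule. Ly6c1 rose in IL10 and fell in DN Tregs, from 304 to 34.9 CPM in the latter, a difference of 5.28 ± 0.42. Satb1, a chromatin organiser of T cells, and Ncoa7 rose in IL10 and fell in DN cells, the IL10 rise of Satb1 being lost in 4 of the 9 fits (adjusted p up to 0.116, without batch 3), with differences of 3.09 ± 0.31 and 2.51 ± 0.29. Ift80, Asap1, Igf2r and Dgka, the diacylglycerol kinase that limits T cell receptor signals, differed by 2.08 ± 0.19, 2.26 ± 0.24, 2.80 ± 0.32 and 1.12 ± 0.13. For every gene of this direction named here the lymph node mean was lower in IL10 than in DN Tregs. The difference passed in all 9 refits for each of the 15 genes named here.

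In DN Tregs 17 of 29 hypoxia genes, 18 of 25 cholesterol genes and 27 of 45 interferon genes were higher, against 18, 18 and 28 in IL10 Tregs. The difference of effects was called for 0 hypoxia genes, 0 cholesterol genes and 5 interferon genes, among the last Usp18 at 1.49 ± 0.36, lost without batch 1, batch 2 or the tumour library of batch 3 (adjusted p up to 0.204). Slc2a1, of the glycolysis list, differed by 0.95 ± 0.25, lost in 6 of the 9 fits (adjusted p up to 0.197, without batch 3). Of 25 tissue and effector Treg genes, a list that holds Il10 itself, 22 were higher in tumour DN cells. A lower site effect in IL10 than in DN Tregs was called for 14 of the list. Of 33 S phase genes 21 were higher in tumour DN cells against 0 in IL10 cells, but the difference itself was called for 6 of them. Of 77 cytosolic ribosomal protein genes 51 were lower in tumour DN cells, and 14 had a higher site effect in IL10 Tregs.

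**Figure D4:**
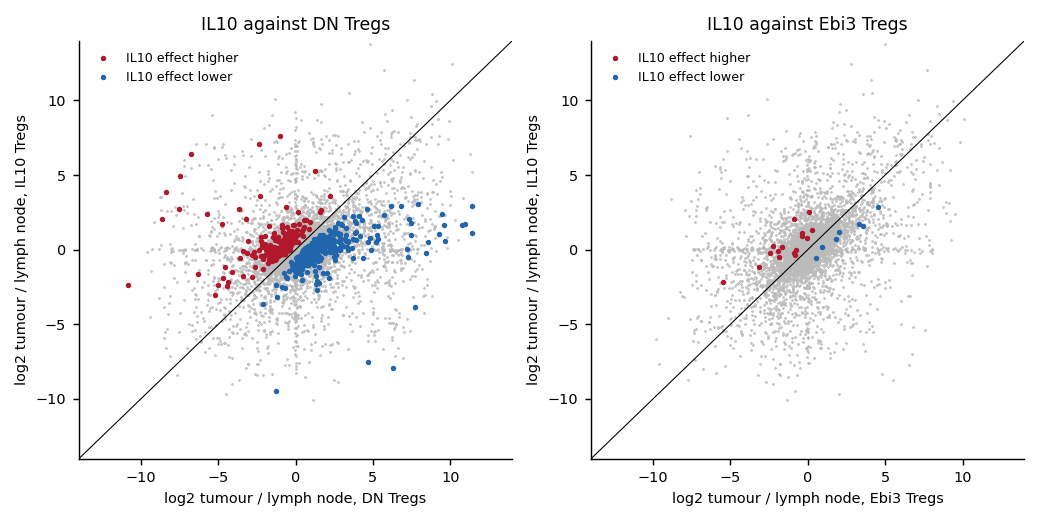
Site effect (log2 fold change of tumour over lymph node) in IL10 Tregs against that in DN Tregs (left) and in Ebi3 Tregs (right) for the 12907 genes tested, 1 point per gene, with genes whose 2 effects differed at an adjusted p under 0.05 in colour. There are 579 coloured genes on the left and 23 on the right, and the line marks equal effects.

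Set against Ebi3 Tregs, 23 genes differed in site effect (0.178%), 16 with a higher value in IL10 Tregs (0.124%) and 7 with a lower one (0.0542%). In Ebi3 Tregs 1323 genes passed between sites (10.3%), 6.24% of all genes being higher and 4.01% lower in tumour. Asap1 averaged 20.8 and 17.8 CPM in tumour and lymph node IL10 Tregs and 20.2 and 94.6 CPM in Ebi3 Tregs, a difference of effects of 2.46 ± 0.24. Themis did not pass in Ebi3 Tregs, at 54.3 CPM in tumour and 50.7 CPM in lymph node, and rose in IL10 Tregs from a low lymph node level, a difference of 2.42 ± 0.35. Gpr18, a lipid receptor, fell in Ebi3 cells and differed by 1.84 ± 0.23. Ift80, Capn3, Chchd10 and Tspan13 differed by 1.33 ± 0.19, 3.31 ± 0.56, 1.45 ± 0.25 and 1.02 ± 0.19. Fgl2 and Ly6a rose in both populations but less in IL10 Tregs, with differences of -2.01 ± 0.25 and -1.62 ± 0.28. Gpr183, the oxysterol receptor that positions cells in lymphoid tissue, averaged 172 and 255 CPM in IL10 Tregs and 321 and 224 CPM in Ebi3 Tregs. It was lower in tumour in the former, a call lost in 6 of the 9 fits (adjusted p up to 0.143, without batch 1), and rose in the latter, a difference of -1.10 ± 0.22. AW112010, Samsn1, Sv2c and Gbp7 differed by -1.10 ± 0.16, -0.85 ± 0.16, -1.70 ± 0.35 and -0.74 ± 0.16. Among these genes the difference passed in all 9 refits for 4, Asap1, Fgl2, Gpr18 and Themis. That of Ift80 was lost without batch 1 (adjusted p = 0.0713), of AW112010 lost without batch 3 (adjusted p = 0.0664) and of Ly6a lost without batch 1 or batch 3 (adjusted p up to 0.208). Those of Samsn1, Capn3 and Chchd10 were lost in 3 fits each (adjusted p up to 0.673, 0.714 and 0.188). Tspan13, Gpr183, Gbp7 and Sv2c lost it in 5, 5, 7 and 7 fits. A gene that missed the threshold here is not shown to behave alike in the 2 populations.

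**Figure D5:**
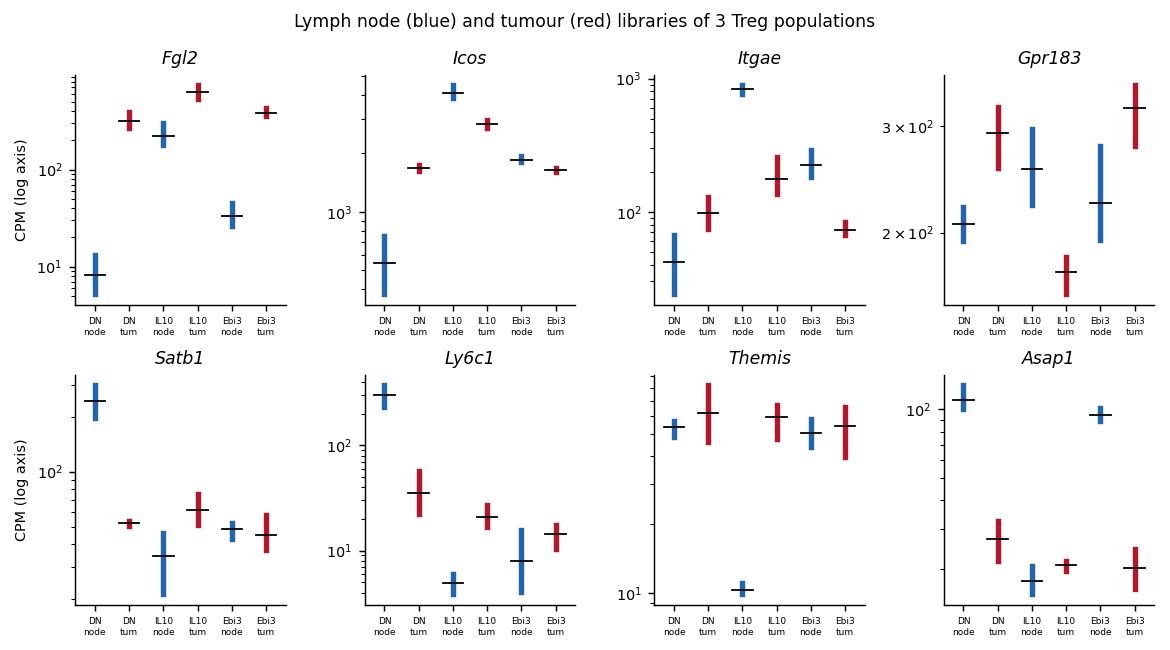
Level of 8 genes (CPM on effective library sizes, log axis) in lymph node and tumour libraries of DN, IL10 and Ebi3 Tregs, with a vertical line from the lowest to the highest of the 3 libraries and a horizontal bar at their mean. Fgl2 and Icos are lowest in lymph node DN Tregs, Ly6c1 is highest there, and Themis is lowest in lymph node IL10 Tregs.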

How the data were processed

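RNA of sorted Tregs was sequenced, and the authors deposited a table of raw read counts per gene for all libraries and a table of filtered log2 values for the Treg libraries. STAR, featureCounts of the Subread package, limma and the build mm10 are named in the submitters' processing notes. They state no versions, annotation or strand setting. The deposited log2 values carry a constant per gene and batch. Apart from it they matched log2 CPM on library totals without TMM factors (median within-batch SD of the difference 0.000531).

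The comparison was fitted to the deposited counts of 30 Treg libraries in 10 groups with edgeR 4.0.16 (R 4.3.3): filterByExpr left 12907 of 23420 genes, TMM factors scaled the libraries, and a robust quasi-likelihood fit had group and batch as terms. All groups shared the estimate of spread. The differences of site effects were contrasts of the same fit, and p-values were adjusted by Benjamini-Hochberg over all genes tested. The SE is the log2 fold change divided by the square root of the F statistic. The batch label pairs the libraries. Deviations from group means of same-batch tumour and lymph node libraries correlated at 0.0828, 0.171 and 0.0494, and those of different batches at -0.116 to 0.0346. Such deviations cancel within a group, so the 2 sets of values are not independent. No 2 libraries were near-identical.

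Genes were named by rule: the 15 per direction with the largest change among called genes with a mean of at least 5 CPM, moving alike in 3 batches without overlap; members of gene lists; and 8 per direction with the smallest p for each difference of site effects. Some genes that these rules name are not reported here. The members and lists were chosen with earlier results of these data known. Promoters came from RefSeq (GRCm38.p6), matched by symbol. Alternatives were DESeq2 1.42.0, limma 3.58.1 on the deposited log2 values, other scaling and filters, fewer libraries, no batch term and leave-outs. The CD8 libraries were not used here.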

Additional observations from a re-analysis of the deposited data

Results flagged for a closer look

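The site effects of 15 genes in IL10 Tregs and DN Tregs differed by edgeR's quasi-likelihood test of the difference itself. As log2 differences of effects, IL10 minus DN, the effect in IL10 Tregs was higher for Ly6c1 (5.28), Ift80 (2.08), Satb1 (3.09), Asap1 (2.26), Igf2r (2.80), Dgka (1.12) and Ncoa7 (2.51). It was lower for Fgl2 (-3.77), Itgae (-3.61), Icos (-2.18), AW112010 (-1.62), S100a10 (-1.74), Cldn25 (-2.20), Srgn (-1.45) and Vps54 (-1.73). These are among the genes with the smallest p in each direction, not a sample of all 579 that differed.

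Against Ebi3 Tregs 14 genes were picked in the same way. The effect in IL10 Tregs was higher for Asap1 (2.46), Gpr18 (1.84), Ift80 (1.33), Themis (2.42), Capn3 (3.31), Chchd10 (1.45) and Tspan13 (1.02). It was lower for Fgl2 (-2.01), AW112010 (-1.10), Ly6a (-1.62), Samsn1 (-0.85), Gpr183 (-1.10), Sv2c (-1.70) and Gbp7 (-0.74). The 2 comparisons share the 6 IL10 libraries. Groups of 3 libraries are too small for the test of a single far library.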

How the results depend on the processing

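No named gene changed sign with a call under any alternative that gave it a value. For tumour against lymph node, the fit with no replicate block (batch not a term) called 643 genes, 395 higher and 248 lower, against 1203, 717 and 486 with the paired design. Limma on the deposited values, which lack the TMM factors and were fitted without a batch term, called 1956, 1410 of them lower. Leave-outs of a batch or a library called 535 to 1112 genes, 326 to 608 higher and 209 to 504 lower, the fewest without batch 3. For the difference from DN Tregs, DESeq2 called 906 genes with 558 lower, no replicate block 170 with 61 higher and 109 lower, limma 498 lower, and the fit of only the libraries compared 491 lower. Its split then was 28.6% higher, against 44.2%. Leave-outs gave 211 to 532 calls, 64 to 232 higher and 128 to 300 lower. For the difference from Ebi3 Tregs, DESeq2 called 84 (48 higher, 36 lower), only the libraries compared 68 (45 lower), no replicate block 7 (6 higher, 1 lower) and limma 11 lower. Leave-outs gave 7 to 27 calls, 5 to 16 higher and 1 to 12 lower. The cause of these moves was not tested, beyond the fewer libraries of the leave-outs. Of the list counts, 1281 stayed within 1.5 times and 383 did not. Of the values of named genes, 4485 kept direction and side of the threshold, 475 lost the call and 28 gained it. Low counts limit the genes absent from 1 site, whose fitted changes are no bounds.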
